A study of Mus musculus with 12 samples.

Results

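The comparison asked whether the difference between *Aldh1b1*tm1lacZ null and wild-type islets was itself different at week 8 and at postnatal day 1 (P1). It was measured for every gene as the interaction of genotype and age, which is the null minus wild-type difference at week 8 minus the null minus wild-type difference at P1. The same number is the change with age in null islets minus the change with age in wild-type islets. All 12 of the 12 RNA sequencing libraries of the study entered 1 model with a mean for each of 4 groups. Of the 18351 genes in the table, 18338 had a mean of at least 1 normalized count and were tested.

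The 4 groups were islets of week 8 *Aldh1b1*tm1lacZ null mice (animals MUT218, MUT219 and MUT229), islets of week 8 wild-type mice (replicates 1, 2 and 3), islets of P1 null mice (replicates 1, 2 and 3) and islets of P1 wild-type mice (replicates 1, 2 and 3). Values given as a set of 3 follow that order of libraries. A week 8 library came from 1 mouse, and a P1 library pooled the islets of 3 newborn mice. The null allele is a *lacZ* knock-in at the *Aldh1b1* locus, carried in the germline rather than deleted in a chosen cell type, and the study's methods name male mice for islet isolation. The islets of all groups were held in serum-containing RPMI-1640 medium after isolation. Age, pooling and the order of library numbers went together and cannot be told apart. Each null minus wild-type difference was taken within an age, where the wild-type libraries were numbered before the null libraries. Genotype and the order of library numbers thus cannot be told apart within an age either.

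ALDH1B1 is a mitochondrial aldehyde dehydrogenase, an enzyme that oxidises aldehydes to acids, and in the mouse pancreas it marks embryonic progenitors. These progenitors give rise to the acinar cells that make digestive enzymes, to the duct cells and to the endocrine cells of the islets. Newborn beta cells are immature, and in the weeks after birth they raise the genes for insulin, glucose sensing and regulated secretion, lower several metabolic genes of other tissues and divide less. An islet preparation is a bulk sample that can also carry acinar, duct, endothelial, stromal and immune cells. In such a sample fewer cells of a type and less RNA per cell cannot be told apart.

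The libraries held between 15212080 and 29248285 reads in genes, and in each of them whole reads were recovered from the normalized values. *Aldh1b1* had 1, 0 and 0 reads in week 8 null libraries, against 40, 92 and 61 in week 8 wild-type libraries. It had 0, 0 and 3 reads in P1 null libraries, against 87, 86 and 121 in P1 wild-type libraries. Acinar transcripts were abundant in libraries labelled as islets. A list of 36 acinar enzymes and secretory proteins took 13.1%, 24.8% and 14.4% of the reads of week 8 null libraries, against 51.5%, 50.5% and 56.9% in week 8 wild-type libraries. The same list took 26.9%, 23.0% and 11.6% of the reads of P1 null libraries, against 3.55%, 2.27% and 7.09% in P1 wild-type libraries. The acinar share was thus lower in nulls at week 8 and higher in nulls at P1, with no overlap between genotypes at either age. The summed share of the 8 islet hormone genes, of which 3 were called higher in the interaction, was higher in nulls at week 8 and lower in nulls at P1. They took 13.5% to 14.6% of the reads of week 8 null libraries, against 3.68% to 6.77% in week 8 wild-type libraries, and 2.07% to 3.88% in P1 null libraries, against 5.83% to 9.27% in P1 wild-type libraries. None of the 36 acinar and 8 hormone genes was at 0 in all libraries of a group. A share is taken of all reads in genes, so a large acinar share lowers the shares of the other lists. Normalized counts are divided by size factors instead, so shares and normalized counts can differ.

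**Figure D1:**
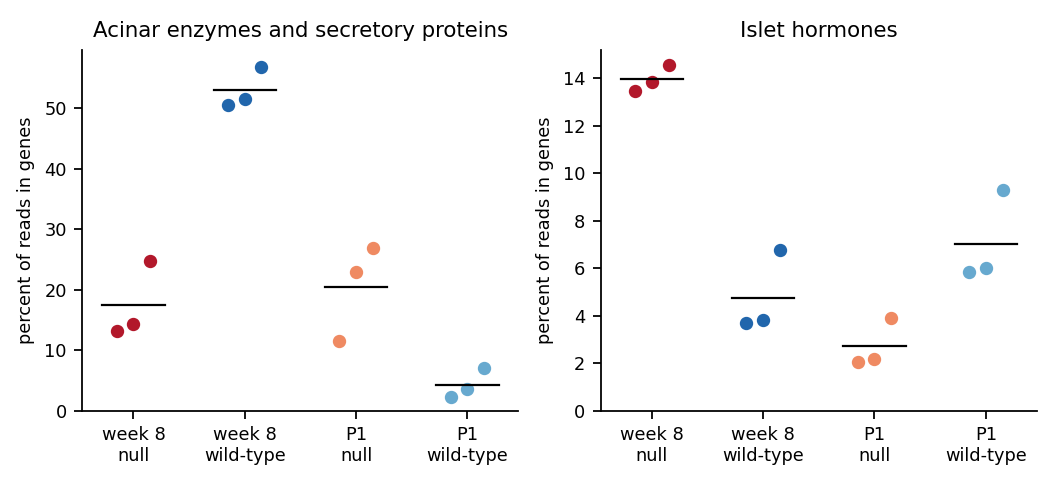
Percent of the reads in genes (y axis) taken by acinar enzymes and secretory proteins (left) and by islet hormones (right) in each library. Points are libraries in ascending order within a group and lines are group means, and the acinar share was 13.1% to 24.8% in week 8 nulls, against 50.5% to 56.9% in week 8 wild-type, and 11.6% to 26.9% in P1 nulls, against 2.27% to 7.09% in P1 wild-type.

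Across all genes, 1504 were called higher in the interaction, 8.2% of those tested, and 2486 were called lower, 13.6% of those tested (limma, adjusted p under 0.05). Higher means that the null minus wild-type difference was greater at week 8 than at P1, and lower means that it was smaller. Counts of list members called are read against these shares of 8.2% and 13.6%. The median SE of the interaction was 0.35 on the log2(normalized count + 1) scale, on which the changes of low genes are understated. The genes called lower moved further, with 1116 of them at 2 log2 units or more in size, against 162 of those called higher. Between null and wild-type islets in the same model, 1589 genes were higher (8.67%) and 2788 lower (15.2%) at week 8. At P1, 94 were higher (0.513%) and 41 lower (0.224%). The P1 total of 135 was 9 or 11 with P1 null replicate 1 or 2 left out, 59 or 35 with P1 wild-type replicate 1 or 2 left out, 300 with week 8 wild-type replicate 2 left out and 546 with P1 null replicate 3 left out. The 1504 higher interaction calls were 919 or 943 with P1 null replicate 1 or 2 left out, 946 with week 8 wild-type replicate 3 left out and 2316 with P1 wild-type replicate 1 left out. They were 2268 with an offset for gene length and 3849 with array weights. The week 8 total of 4377 was 2537 with week 8 wild-type replicate 3 left out and 2767 with week 8 null animal MUT218 left out. With age, 3881 genes rose (21.2%) and 4677 fell (25.5%) in null islets, while 2910 rose (15.9%) and 3077 fell (16.8%) in wild-type islets.

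The calls depended on whether the acinar share was a covariate. Size factors computed without the acinar lists gave 4009 interaction calls, 3964 of them shared with the main fit. Such factors rescale whole libraries and do not adjust a gene for the acinar share. With the log2 acinar share as a covariate, limma called 0 genes in the interaction, and 873 genes had an unadjusted p under 0.05, while edgeR and DESeq2 without that covariate called 4089 and 4782. The log2 acinar share had an interaction of its own of -3.98 ± 0.67 (SE), and 88.9% of its variation between libraries lay between the 4 groups, so that the covariate raised the median SE of the interaction by 2.32 times, to 0.82. Of the genes called, 1427 of 1504 higher and 2310 of 2486 lower ones kept their sign with the covariate. Their median interactions were 0.70 with the covariate against 1.13 without it for the higher genes, and -1.16 against -1.86 for the lower genes. The acinar share thus followed the groups, and its part in the interaction of genotype and age cannot be told apart by this design.

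For nearly all of these genes, null islets stood on opposite sides of wild-type islets at the 2 ages. The estimates at week 8 and at P1 had opposite signs for 1463 of the 1504 genes called higher (97.3%) and for 2291 of the 2486 genes called lower (92.2%), while 59.9% of all genes tested had opposite signs. An interaction is larger when its parts have opposite signs, so this share describes the called genes and was not tested. Only 108 of the 3990 genes were called in the interaction and at both ages with opposite signs. These were 27 genes that were higher in week 8 nulls and lower in P1 nulls, and 81 that were lower in week 8 nulls and higher in P1 nulls. No gene was called in the interaction and at both ages in the same direction. Week 8 alone was called for 968 of the higher and 2040 of the lower genes, P1 alone for 10 and 11, and neither age for 499 and 354. The 108 rested on the P1 libraries, as 8 or 9 such genes were called when P1 null replicate 1 or 2 was dropped, 52 or 28 when P1 wild-type replicate 1 or 2 was dropped, and 372 when P1 null replicate 3 was dropped. The count was 68 when week 8 null animal MUT229 was dropped and 233 when week 8 wild-type replicate 2 was.

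**Figure D2:**
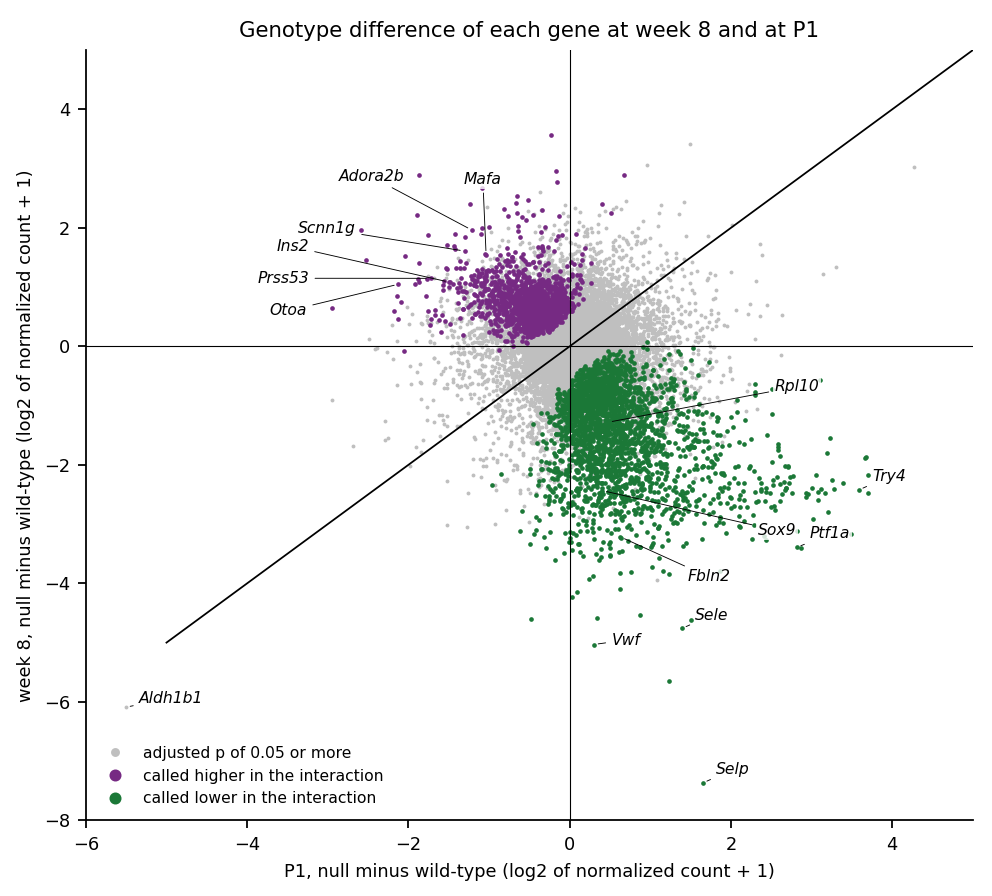
Null minus wild-type difference of each of 18338 genes at P1 (x axis) and at week 8 (y axis), both in log2(normalized count + 1). Purple points are the 1504 genes called higher in the interaction and green points the 2486 called lower, the diagonal marks equal differences at both ages, and *Aldh1b1* lies close to it at -5.50 and -6.09.

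Read along age, genes with an age call in null islets only made up the largest of 4 classes in either direction. Of the genes called higher, 879 had an age call in null islets only, 260 in wild-type islets only and 320 in both. Of the genes called lower, 1154 had an age call in null islets only, 543 in wild-type islets only and 734 in both. The age estimates of both genotypes had the same sign for 397 of these 879 genes and for 541 of these 1154. A missing call thus does not mean no change. Over all genes tested, age calls were also more numerous in null islets (8558) than in wild-type islets (5987). The age estimates of the 2 genotypes had opposite signs for 797 genes called higher (52.99%) and for 1295 called lower (52.1%), against 32.05% of all genes tested. The interaction is also larger when the age changes have opposite signs, so these shares describe the called genes and were not tested. Genes called higher had a median age change of 0.91 in null islets, against -0.18 in wild-type islets, and genes called lower had -1.43 in null islets, against 0.30 in wild-type islets.

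Digestive enzyme genes were lower in the interaction without exception. All 36 acinar enzymes and secretory proteins were called lower, with a median of -4.92 and a range of -6.01 to -3.07 log2 units, where all genes tested had a median of -0.011. The median null minus wild-type difference was -2.42 at week 8, where all 36 fell, and 2.55 at P1, where 26 rose. Along age, 33 of the 36 rose in wild-type islets with a median of 5.33, against 6 that rose and 6 that fell in null islets, with a median of 0.43.

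The acinar genes with the largest interactions encoded secretory proteins and the factors that switch them on. *Ptf1a*, a helix-loop-helix factor that drives acinar genes, had 44.3, 199.7 and 83.2 normalized counts in week 8 null libraries, against 694, 1177 and 1083 in week 8 wild-type libraries. It had 225, 145 and 119 in P1 null libraries, against 21.2, 9.80 and 46.3 in P1 wild-type libraries. All nulls lay below all wild-types at week 8 and above them at P1. Its interaction was -6.21 ± 0.75 (SE, limma adjusted p = 1.7e-04). *Rbpjl*, the partner of PTF1A in the acinar complex, had 473, 1480.3 and 688 normalized counts in week 8 nulls, against 4467, 5267 and 6885 in week 8 wild-type. Its P1 counts were 4261, 3870.1 and 2113 in nulls, against 297, 249.8 and 601 in wild-type. The genotypes again did not overlap at either age, and *Rbpjl* was called at both, with an interaction of -5.995 ± 0.56 (adjusted p = 6.1e-05). *Gata4*, a zinc finger factor of acinar cells, had an interaction of -4.92 ± 0.55 (adjusted p = 1.2e-04), and all 5 acinar transcription factors were called lower.

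*Gp2*, which encodes a membrane protein of zymogen granules, had 16099, 38386 and 17503 normalized counts in week 8 nulls, against 101206, 110460.2 and 143173 in week 8 wild-type. In P1 libraries the counts were 34723, 28582 and 13036 in nulls, against 1669, 1758 and 4823 in wild-type. Among the P1 nulls, replicate 3 was the lowest for *Gp2*, *Rbpjl* and *Ptf1a*, and it also had the lowest acinar share. The interaction of *Gp2* was -5.68 ± 0.62 (adjusted p = 1.0e-04), and that of *Rnase1*, the pancreatic ribonuclease, was -5.63 ± 0.69. *Serpini2*, a pancreatic serine protease inhibitor, stood at -5.53 ± 0.70. The trypsinogens *Try4* (-6.01 ± 0.54) and *Prss2* (-5.54 ± 0.75) have near-identical sequences, and counting may have split their reads. *Prss1*, another gene of that family, had an interaction of -5.39 ± 0.53. It fell with age in both genotypes, with age changes of -10.39 in null and -4.997 in wild-type islets.

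Promoters of acinar genes are shown because the genes of both acinar lists moved together and the PTF1 complex of PTF1A and RBPJL is known to bind an E-box beside a TTTCCC box. The sequences are RefSeq promoters of build GRCm38.p6, from 250 bases before to 50 bases after the start of transcription, read 5′ to 3′ on the gene's strand. Capitals mark CACCTG, an E-box, and TTTCCC, or their reverse complements CAGGTG and GGGAAA. The motifs were chosen after the results were known, and a match is a run of letters, not a measured binding site.
Prss2, chr6:41521526-41521825, plus strand: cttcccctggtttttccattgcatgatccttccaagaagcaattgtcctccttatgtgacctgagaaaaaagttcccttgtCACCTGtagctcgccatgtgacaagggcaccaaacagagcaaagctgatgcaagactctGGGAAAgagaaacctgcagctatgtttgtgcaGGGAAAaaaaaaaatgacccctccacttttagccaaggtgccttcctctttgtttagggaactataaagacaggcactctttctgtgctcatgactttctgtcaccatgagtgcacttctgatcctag
Cel, chr2:28563354-28563653, minus strand: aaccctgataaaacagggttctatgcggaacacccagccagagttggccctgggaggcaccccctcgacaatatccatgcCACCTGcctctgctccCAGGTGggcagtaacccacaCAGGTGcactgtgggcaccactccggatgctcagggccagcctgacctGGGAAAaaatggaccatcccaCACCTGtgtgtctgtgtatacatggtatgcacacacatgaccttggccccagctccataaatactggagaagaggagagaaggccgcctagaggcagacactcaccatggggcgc
Cela2a, chr4:141825956-141826255, minus strand: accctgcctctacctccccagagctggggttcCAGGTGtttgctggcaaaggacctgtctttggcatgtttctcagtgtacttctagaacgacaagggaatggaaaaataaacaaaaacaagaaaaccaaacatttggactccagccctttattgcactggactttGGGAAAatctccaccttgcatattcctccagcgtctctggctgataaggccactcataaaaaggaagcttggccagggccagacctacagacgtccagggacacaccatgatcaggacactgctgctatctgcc
Each of these 3 genes was called lower, and they were picked because their promoters hold both motifs, after the values were seen. The *Rbpjl* promoter, which is not printed, holds 1 E-box and 0 TTTCCC matches. *Prss2* encodes a trypsinogen with 1 E-box and 2 TTTCCC matches in the window. *Cel* encodes the bile salt-activated lipase, with 4 E-boxes, 1 TTTCCC match and an interaction of -5.45 ± 0.73 (SE, limma adjusted p = 2.9e-04). *Cela2a* encodes an elastase, with 1 match to each motif and an interaction of -4.93 ± 0.77 (adjusted p = 7.2e-04). Promoters were found for 31 of the 41 genes of the acinar lists, 33 promoters in all, and 54.5% of them held CACCTG, 36.4% TTTCCC and 21.2% both. Over all 32851 promoters of the table the shares were 20.2%, 25.3% and 4.86%, and over 27 promoters of 20 of the 29 beta cell identity genes they were 25.9%, 14.8% and 7.41%.

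The selectin genes *Selp*, which is on the endothelial list, and *Sele*, which is not, had large interactions. *Selp* encodes P-selectin, which endothelial cells and platelets use to hold leucocytes, and its interaction of -9.02 ± 1.38 (SE, limma adjusted p = 6.1e-04) was the largest in size of all genes tested. It had 135, 5.70 and 4.34 normalized counts in week 8 null libraries, against 6766, 707 and 4584 in week 8 wild-type libraries. The P1 counts were 4229, 3209 and 3289.8 in nulls, against 883, 1388 and 1173 in wild-type. Animal MUT218 stood above the other week 8 nulls and wild-type replicate 2 below the other week 8 wild-types, but the genotypes did not overlap at either age. *Sele*, which encodes E-selectin, had 17.5, 5.70 and 15.2 normalized counts in week 8 nulls, against 867, 80.2 and 565 in week 8 wild-type. For P1, counts of this gene were 1397, 1315 and 1717 in nulls, against 319, 709.5 and 765 in wild-type, and its interaction was -6.15 ± 0.94 (adjusted p = 6.0e-04). Week 8 wild-type replicate 2 was again the lowest of its group.

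*Vwf*, the von Willebrand factor of endothelial cells, had 40.3, 12.4 and 22.4 normalized counts in week 8 nulls, against 1769, 212 and 1203 in week 8 wild-type. At P1 the genotypes overlapped, with 1283, 652 and 859 in nulls, against 593, 813 and 798 in wild-type. Its interaction of -5.33 ± 0.84 (adjusted p = 7.6e-04) thus rested on the week 8 libraries. Most other endothelial genes had smaller interactions. Of 25 endothelial markers, 12 were called lower and 0 higher, with a median of -0.93, and *Tek*, the angiopoietin receptor, had -1.41 ± 0.26 (adjusted p = 0.0021). The list took 0.0619% to 0.0910% of reads in week 8 nulls, against 0.0702% to 0.113% in week 8 wild-type, and 0.239% to 0.308% in P1 nulls, against 0.288% to 0.312% in P1 wild-type. The part of endothelial cell number in the selectin result was not tested.

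Genes of the mesenchyme and its matrix were lower in the interaction almost throughout. Of 25 genes, 24 were called lower, with a median of -2.61, and all 25 fell in week 8 nulls while none was called at P1. With age they fell in both genotypes, all 25 in null islets (median -4.07) and 17 in wild-type islets (median -1.20). *Fbln2*, which encodes the matrix protein fibulin 2, had 83.3, 75.1 and 77.4 normalized counts in week 8 nulls, against 953, 421 and 1001 in week 8 wild-type. Its P1 counts were 2353, 1614 and 1786 in nulls, against 1088, 1254 and 1340.1 in wild-type. The 3 week 8 nulls lay close together and below all other libraries, and the interaction was -3.85 ± 0.37 (SE, limma adjusted p = 6.2e-05). *Mmp2*, a gelatinase, had 36.9, 23.8 and 22.4 in week 8 nulls, against 482, 141 and 354 in week 8 wild-type, and an interaction of -4.19 ± 0.52 (adjusted p = 1.9e-04). *Dcn*, which encodes the proteoglycan decorin, rose with age in wild-type islets (1.14 ± 0.29) and fell in null islets (-2.42 ± 0.29), and its interaction was -3.56 ± 0.41 (adjusted p = 1.3e-04). The list took 0.0264% to 0.0508% of reads in week 8 nulls, against 0.0519% to 0.109% in week 8 wild-type, and 0.546% to 0.731% in P1 nulls, against 0.470% to 0.545% in P1 wild-type. The part of stromal cell number was not tested.

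Duct genes followed, with 14 of 20 called lower, 1 higher and a median of -1.94. *Sox9*, the transcription factor of duct cells and progenitors, had 195, 219.6 and 135 normalized counts in week 8 nulls, against 1136, 690.2 and 1174 in week 8 wild-type. At P1 it had 1626, 1802 and 1468 in nulls, against 1068, 1302 and 1335 in wild-type. Week 8 nulls were the lowest of all groups, P1 nulls the highest, and the interaction was -2.84 ± 0.31 (SE, limma adjusted p = 9.1e-05). *Krt20*, a keratin of mucosal epithelia that is not on the duct list, had 18.1, 3.80 and 14.5 normalized counts in week 8 nulls, against 274, 34.5 and 174 in week 8 wild-type. It reached 2140.4, 2034 and 742 in P1 nulls, against 182, 156 and 289.6 in P1 wild-type, and had an interaction of -6.28 ± 0.95 (adjusted p = 5.7e-04). P1 null replicate 3 lay below the other P1 nulls for *Krt20*. *Muc1*, a membrane mucin, and *Tff2*, a secreted trefoil peptide, had interactions of -3.16 ± 0.42 (adjusted p = 2.9e-04) and -5.48 ± 0.66 (adjusted p = 1.7e-04). The one duct keratin called higher was *Krt7*, at 1.28 ± 0.28 (adjusted p = 0.0056). It had 4096, 3135 and 3946 normalized counts in week 8 nulls, against 2570.0, 2556 and 2385 in week 8 wild-type, and 2174, 2506 and 3613 in P1 nulls, against 5716, 4063 and 3748 in P1 wild-type.

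**Figure D3:**
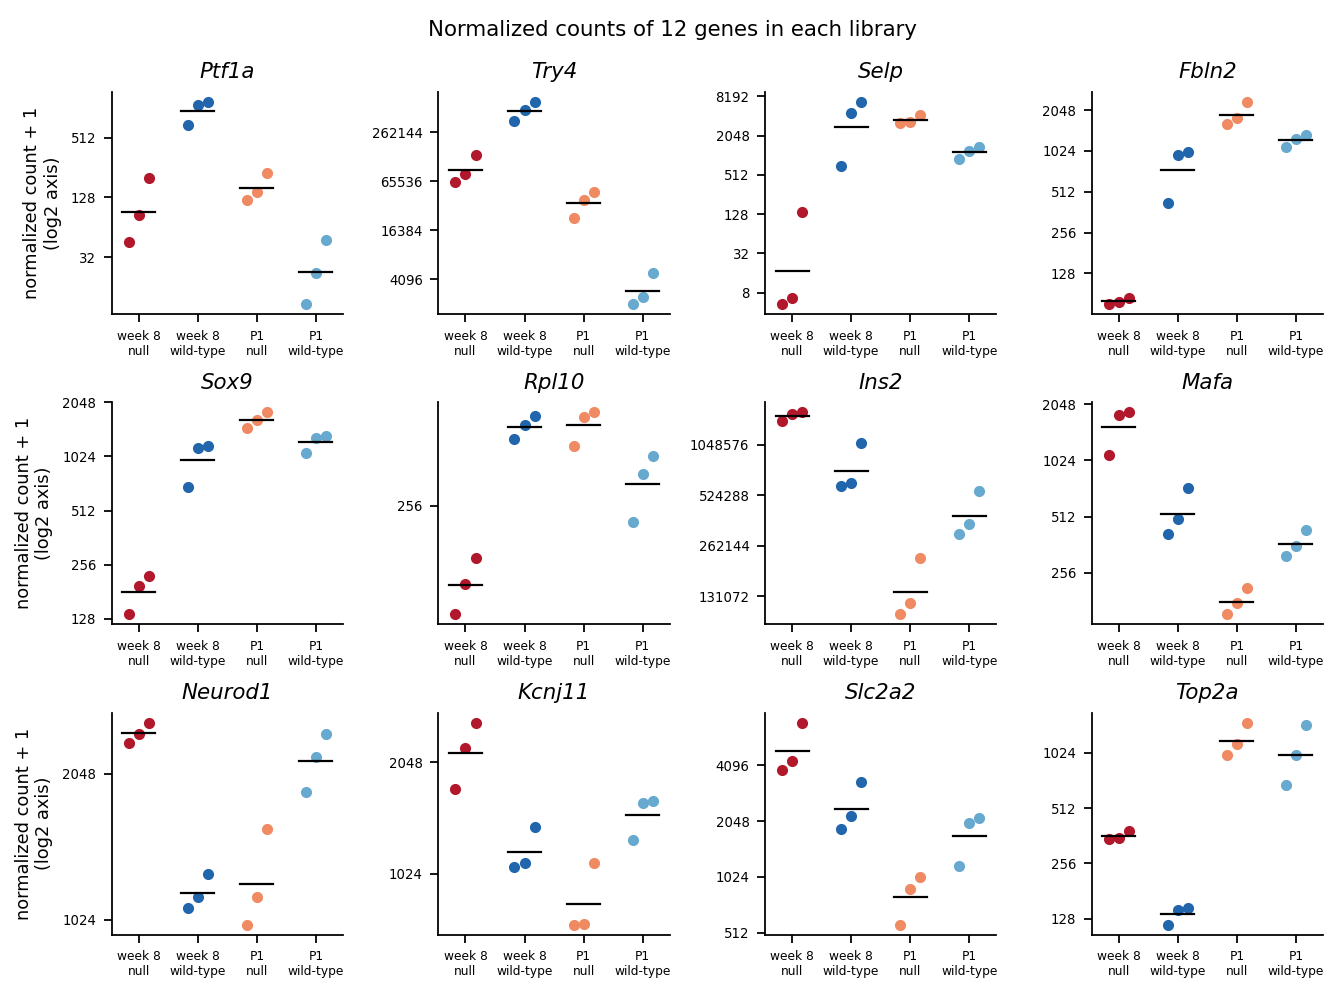
Normalized count + 1 (log2 y axis) of 12 genes in each of the 12 libraries. Points are libraries in ascending order within a group and lines are geometric means, and *Ptf1a*, *Try4*, *Selp*, *Fbln2*, *Sox9* and *Rpl10* were called lower in the interaction and *Ins2*, *Mafa*, *Neurod1*, *Kcnj11*, *Slc2a2* and *Top2a* higher.

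Genes that mature beta cells keep low were called lower as a group. Of 22 such genes, 21 were called lower, with a median of -2.04, and 20 fell in week 8 nulls with none called at P1. Several of them are also expressed in acinar, stromal or endothelial cells. *Hk2*, a high-affinity hexokinase, had 43.0, 63.7 and 39.8 normalized counts in week 8 nulls, against 436, 325 and 354 in week 8 wild-type. In P1 libraries the counts were 435, 396 and 229.1 in nulls, against 90.5, 164 and 194 in wild-type. It was below wild-type in every week 8 null and above wild-type in every P1 null, with an interaction of -4.17 ± 0.43 (SE, limma adjusted p = 7.6e-05). *Ldha*, the muscle-type lactate dehydrogenase subunit, had 310.2, 368 and 323 in week 8 nulls, against 1563, 835 and 1428 in week 8 wild-type, while its P1 values overlapped. Its interaction was -2.37 ± 0.33 (adjusted p = 3.4e-04), and that of *Tgm2*, a transglutaminase, was -3.28 ± 0.39 (adjusted p = 1.7e-04).

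Glycolysis and glutamine genes of the study's figures split by the member. These lists from the study's figures were chosen on these samples, so their direction is not independent evidence. Of 16, 11 were called lower and 2 higher. *Gls2*, a glutaminase, had 304, 550.5 and 262 normalized counts in week 8 nulls, against 1399, 1363 and 1608 in week 8 wild-type. The P1 counts were 1331, 1201 and 496 in nulls, against 125, 86.8 and 254 in wild-type, and its interaction was -4.75 ± 0.57 (SE, limma adjusted p = 1.7e-04). *Gls2* thus crossed over, as the acinar enzymes did. *Hkdc1*, a hexokinase-like enzyme, had an interaction of -4.25 ± 0.53 (adjusted p = 2.0e-04). The members called higher were *Slc2a2*, the glucose transporter of beta cells, at 2.14 ± 0.42 (adjusted p = 0.0029), and *Pfkfb2*, a regulator of phosphofructokinase, at 1.39 ± 0.25 (adjusted p = 0.0017). *Slc2a2* had 3849.6, 6973 and 4318 normalized counts in week 8 nulls, against 1847, 3326 and 2182.1 in week 8 wild-type, and 882, 563 and 1015 in P1 nulls, against 1178, 1989 and 2116 in P1 wild-type.

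Oxidation defence genes of the study's figures were lower in the interaction for 21 of 26, with a median of -1.60. With age, 12 of the 26 rose in wild-type islets and 1 in null islets, where 13 fell. *Gstp1*, a glutathione transferase, had 381, 596 and 415 normalized counts in week 8 nulls, against 1704, 1493 and 1856 in week 8 wild-type. At P1 the genotypes overlapped, with 755, 548 and 452 in nulls, against 606, 390.4 and 447 in wild-type, and the interaction was -2.15 ± 0.31 (SE, limma adjusted p = 4.5e-04). *Gstk1*, the mitochondrial and peroxisomal transferase, rose with age in wild-type islets by 2.23 log2 units, while its age change in null islets was -0.01 (interaction -2.23 ± 0.34, adjusted p = 5.5e-04). *Glrx*, which encodes a glutaredoxin, was the one member called higher, at 1.24 ± 0.28 (adjusted p = 0.0070). *Nfe2l2*, the NRF2 factor that turns on such genes, had 977, 1038 and 1138 normalized counts in week 8 nulls, against 2108, 1248 and 2018 in week 8 wild-type, and 1836, 2079 and 2279 in P1 nulls, against 2306, 1939.6 and 1802 in P1 wild-type. Its interaction of -0.77 ± 0.26 had an adjusted p of 0.049, which rose to between 0.061 and 0.13 without any 1 of 10 of the 12 libraries and to 0.051 with TMM normalization.

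Immediate early genes, which cells switch on within minutes of a stimulus, were called lower for 15 of 26 and higher for 0. *Myc*, a growth-promoting transcription factor, had 415, 631 and 485 normalized counts in week 8 nulls, against 2306, 1410.4 and 2306 in week 8 wild-type. For P1, counts of this gene were 2418, 2766 and 2371 in nulls, against 2574, 1597 and 1765 in wild-type, which overlapped. Its interaction was -2.34 ± 0.31 (SE, limma adjusted p = 2.9e-04), and its age change was -2.32 in null and 0.02 in wild-type islets. *Atf3*, a stress-induced factor, had 8217, 11436 and 7363 in week 8 nulls, against 21544, 27691 and 27696 in week 8 wild-type. At P1 its order was reversed, with 12956, 10394 and 10188 in nulls, against 6336, 5841 and 8613 in wild-type, and its interaction was -2.23 ± 0.29 (adjusted p = 2.6e-04). *Klf6*, a zinc finger factor, followed at -1.67 ± 0.27 (adjusted p = 9.4e-04). Over the 26 genes, 24 interactions were below 0 and 2 above, the highest at 1.45. Their summed share of reads was 0.922% to 1.33% in week 8 nulls, against 0.694% to 1.09% in week 8 wild-type. In normalized counts, 23 week 8 null minus wild-type estimates were below 0 and 3 above, with a median of -0.95.

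Cytoplasmic ribosomal protein genes differed between genotypes at week 8, and none was called at P1. Of 82, 47 were called lower and 0 higher in the interaction, with a median of -0.998. The median null minus wild-type difference was -0.98 at week 8, where 65 fell, and 0.03 at P1. *Rpl10*, a large subunit protein, had 138, 164 and 190.3 normalized counts in week 8 nulls, against 402, 422 and 370.1 in week 8 wild-type. At P1 it had 419, 431 and 357 in nulls, against 336, 305 and 233 in wild-type. The week 8 nulls were below all other libraries, and the interaction was -1.76 ± 0.25 (SE, limma adjusted p = 4.3e-04). Ribosomal protein genes have many near-identical pseudogenes, and counting may have split their reads. The count of 47 was 23 or 26 with P1 null replicate 1 or 2 left out, 29 with either P1 wild-type replicate 2 or 3 left out, 26 or 28 with animal MUT218 or MUT229 left out and 24 with week 8 wild-type replicate 3 left out. Mitochondrial ribosomal proteins, by comparison, had 1 called higher and 1 lower of 75, and oxidative phosphorylation subunits 2 higher and 1 lower of 81. Without P1 wild-type replicate 1, 11 mitochondrial ribosomal proteins and 26 oxidative phosphorylation subunits were called lower. That library stood apart in gene length, with a rank correlation across genes of -0.62 between its deviation and transcript length. At week 8 this correlation was 0.116, 0.168 and 0.173 in nulls, against -0.051, -0.241 and -0.157 in wild-type, without overlap. The part of gene length in the ribosomal protein result was not tested beyond the offset for gene length.

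Other aldehyde dehydrogenases were called in the interaction, while *Aldh1b1* was not. Its null minus wild-type difference was -6.09 at week 8 and -5.50 at P1 on the fitted scale, and its interaction was -0.59 ± 0.74 (SE, limma adjusted p = 0.62). Of its null libraries, 4 were at 0 reads, so these fitted values depend on the added count of 1 and give no bound. Of 17 family members including it, 9 were called lower and 1 higher. *Aldh1a1*, which makes retinoic acid, had 71.8, 123 and 83.2 normalized counts in week 8 nulls, against 469.8, 523 and 722 in week 8 wild-type. In P1 libraries the counts were 420.0, 428 and 240.3 in nulls, against 106, 116 and 228 in wild-type. No null overlapped a wild-type at either age, and the interaction was -3.93 ± 0.44 (adjusted p = 1.2e-04). Its close paralog *Aldh1a7* had -4.96 ± 0.53 (adjusted p = 9.0e-05) and may share reads with it. *Aldh7a1*, which oxidises a lysine breakdown product, had -2.51 ± 0.28 (adjusted p = 1.2e-04). *Aldh5a1*, the succinic semialdehyde dehydrogenase of the GABA pathway, was the member called higher, with 670.1, 657 and 775 normalized counts in week 8 nulls, against 383, 442 and 409 in week 8 wild-type, and an interaction of 1.01 ± 0.21 (adjusted p = 0.0039).

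Beta cell genes were among those called higher in the interaction. Among 29 beta cell identity and function genes, 21 were called higher and 0 lower, with a median of 1.51. The median null minus wild-type difference was 0.85 at week 8, where 18 rose, and -0.68 at P1, where 1 was called lower. Along age, 24 rose and 2 fell in null islets (median 1.83), against 10 that rose and 6 that fell in wild-type islets (median 0.32). The list took 2.07% to 2.33% of reads in week 8 nulls, against 0.557% to 1.00% in week 8 wild-type, and 0.655% to 1.17% in P1 nulls, against 1.64% to 1.67% in P1 wild-type. These shares moved against the acinar shares, and the part of the acinar share in the beta cell result was not tested beyond the covariate above.

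Of the hormones, the insulin genes and *Iapp* carried the change. *Ins2* had 1445311, 1633477 and 1600237 normalized counts in week 8 nulls, against 595791, 1078999.6 and 618647 in week 8 wild-type. The P1 counts were 120605, 102501 and 222292 in nulls, against 553464, 308338 and 355540.4 in wild-type. Week 8 nulls were all above wild-type and P1 nulls all below, with P1 null replicate 3 and week 8 wild-type replicate 2 nearest to the other genotype. Its interaction was 2.57 ± 0.72 (SE, limma adjusted p = 0.021), although neither age alone was called. The adjusted p was 0.074 without P1 null replicate 2, 0.057 without P1 null replicate 1 and 0.054 without week 8 wild-type replicate 3. *Ins1* had an interaction of 2.36 ± 0.60 (adjusted p = 0.012), and the insulin genes are near-identical paralogs whose reads may be split. *Iapp*, the amyloid polypeptide secreted with insulin, had 188438, 191720.5 and 220179 normalized counts in week 8 nulls, against 79880.2, 126083 and 79535 in week 8 wild-type, and 21975, 20112 and 42784 in P1 nulls, against 87751, 48109 and 51948 in P1 wild-type. Its interaction was 2.28 ± 0.48 (adjusted p = 0.0045).

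The hormones of other islet cells were not called by limma. *Gcg*, the glucagon gene of alpha cells, had 273014, 372791 and 165435 normalized counts in week 8 nulls, against 224200.1, 479589.8 and 364099 in week 8 wild-type. Its P1 counts were 118338, 110699 and 96163 in nulls, against 159690.1, 127982 and 127129 in wild-type. Its interaction was -0.06 ± 0.56 (SE, limma adjusted p = 0.96), and its sign turned without week 8 null animal MUT229 (0.26), week 8 wild-type replicate 2 (0.19) or P1 null replicate 1 (0.0083). *Sst*, the somatostatin gene of delta cells, had 1.37 ± 0.50 (adjusted p = 0.068), and was called without week 8 wild-type replicate 2 (adjusted p = 0.021) or P1 null replicate 3 (adjusted p = 0.032), by DESeq2 (adjusted p = 0.028), with array weights (adjusted p = 0.0030) and with the gene length offset (adjusted p = 0.025). *Ppy*, the pancreatic polypeptide gene, had 0.16 ± 0.62 (adjusted p = 0.88), and its week 8 nulls ran from 13562 to 57959 normalized counts, against 33437 to 40831 in week 8 wild-type. Among 15 further genes of alpha and delta cells, 3 were called higher and 1 lower, against 8.2% and 13.6% of all genes tested. *Gcgr*, the glucagon receptor, was one of those called higher, at 2.00 ± 0.34 (adjusted p = 0.0012).

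Transcription factors of endocrine cells were called higher for 17 of 27 and lower for 2, with a median of 1.43. *Mafa*, which marks mature beta cells and activates insulin genes, had 1855, 1784 and 1099.7 normalized counts in week 8 nulls, against 493, 725 and 412 in week 8 wild-type. At P1 it had 210.0, 152 and 174 in nulls, against 435, 356 and 312 in wild-type. The genotypes did not overlap at either age, and the interaction was 2.58 ± 0.34 (SE, limma adjusted p = 2.6e-04). With age *Mafa* changed by 3.11 ± 0.24 in null and by 0.53 ± 0.24 in wild-type islets. *Neurod1*, a helix-loop-helix factor of endocrine cells, had 2613, 2479.5 and 2377 normalized counts in week 8 nulls, against 1141, 1272 and 1081 in week 8 wild-type. For P1, counts of this gene were 998, 1139.5 and 1577 in nulls, against 2477, 2215 and 1876 in wild-type. Week 8 nulls thus resembled P1 wild-types in level, week 8 wild-types resembled P1 nulls, and *Neurod1* was called at both ages with an interaction of 1.94 ± 0.24 (adjusted p = 1.8e-04).

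*Pdx1*, the homeobox factor of pancreas and beta cells, had 1923, 2168 and 1631 normalized counts in week 8 nulls, against 944, 1359 and 1016 in week 8 wild-type. In P1 libraries the counts were 661, 620.2 and 1176 in nulls, against 1582, 1573 and 1144 in wild-type, with null replicate 3 inside the wild-type range. Its interaction was 1.65 ± 0.33 (SE, limma adjusted p = 0.0031). *Nkx6-1*, a homeobox factor of beta cells, had 4836, 6407 and 5511 in week 8 nulls, against 2269.5, 3822 and 2222 in week 8 wild-type, and 1499.6, 1459 and 2034 in P1 nulls, against 3408, 2616 and 2335 in P1 wild-type. Its interaction was 1.79 ± 0.31 (adjusted p = 0.0013), and that of *Insm1*, a zinc finger factor of endocrine cells, was 2.10 ± 0.32 (adjusted p = 5.8e-04). Of the 14 transcription factors in the study's figures, 10 were called higher and 3 lower. *Nfatc1*, a calcineurin-regulated factor, was called lower, at -1.25 ± 0.31 (adjusted p = 0.011).

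**Figure D4:**
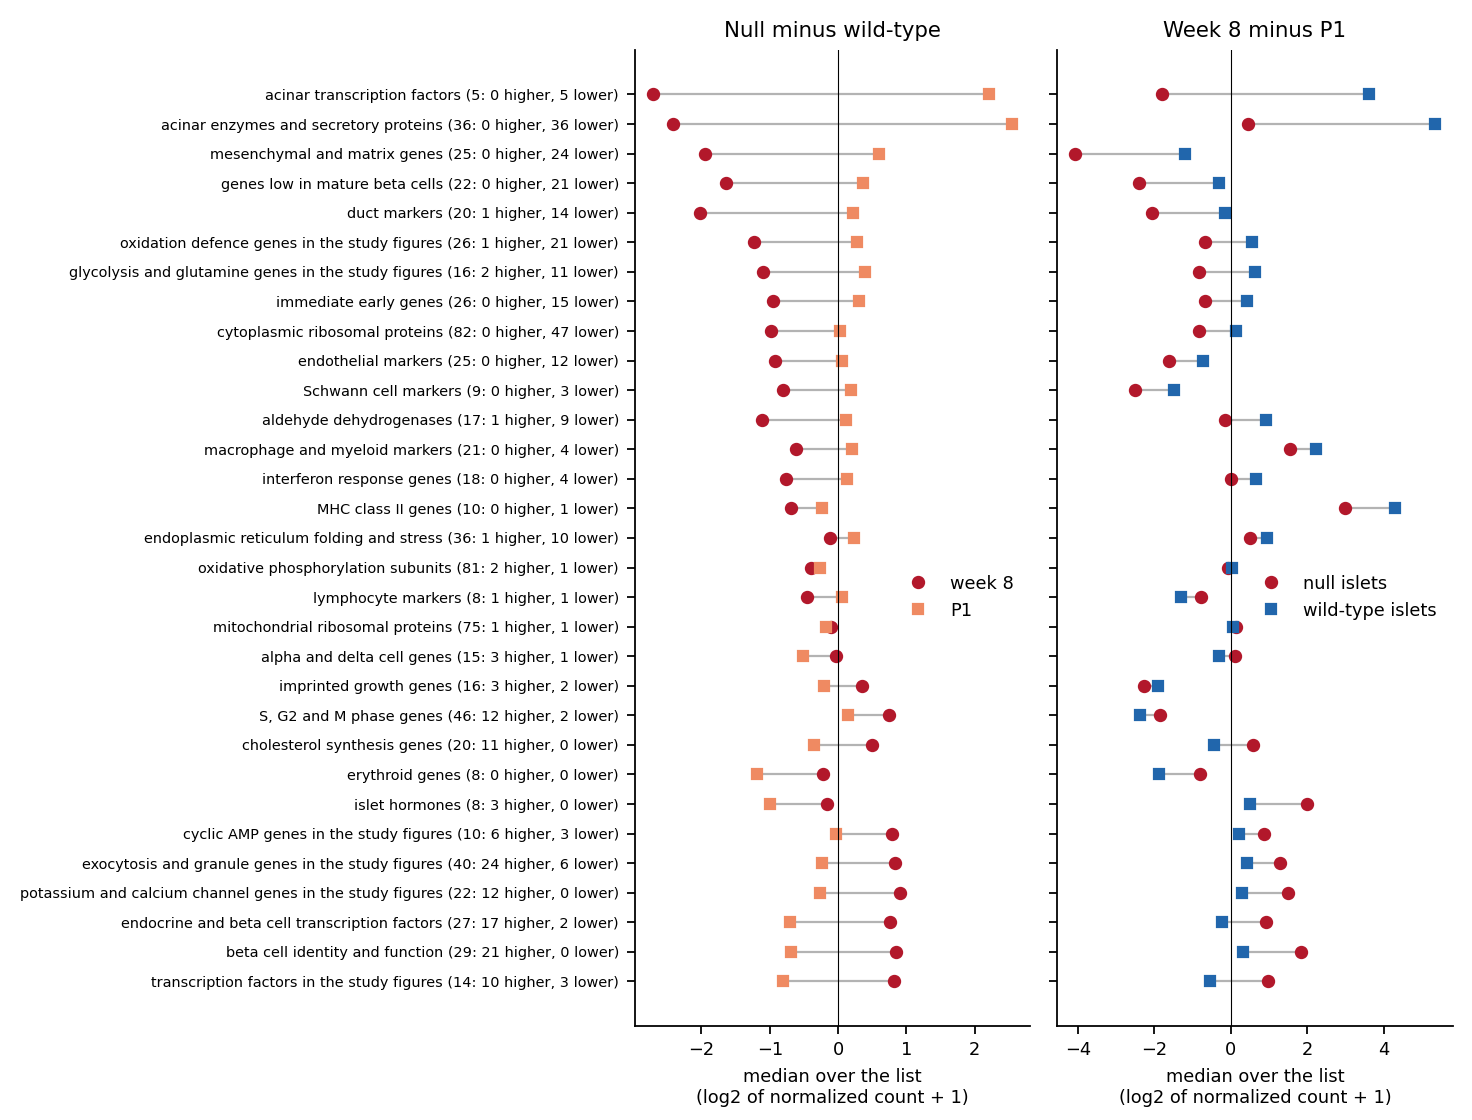
Medians over 31 gene lists of the null minus wild-type difference at week 8 and P1 (left) and of the week 8 minus P1 difference in null and wild-type islets (right), in log2(normalized count + 1). Names give the members tested and the members called higher and lower in the interaction, and lists run from the lowest median interaction (acinar lists, -4.92) at the top to the highest (transcription factors in the study figures) at the bottom.

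Ion channel and exocytosis genes of the study's figures went with the beta cell genes. These lists overlap, as *Kcnj11* and *Cacna1d* are also on the beta cell identity list, so part of this likeness was built in. Potassium and calcium channel genes were called higher for 12 of 22 and lower for none, with a median of 1.09. *Kcnj11*, the pore subunit of the ATP-sensitive potassium channel, had 2615, 1727 and 2239 normalized counts in week 8 nulls, against 1068, 1366 and 1097 in week 8 wild-type. The P1 counts were 749.8, 745 and 1093 in nulls, against 1606, 1586 and 1261 in wild-type, and its interaction was 1.68 ± 0.27 (SE, limma adjusted p = 8.1e-04). *Kcnip1*, a calcium-binding partner of A-type potassium channels, had 968, 1014 and 1252 in week 8 nulls, against 446, 547 and 424 in week 8 wild-type, and an interaction of 2.30 ± 0.30 (adjusted p = 2.4e-04). It rose with age in both genotypes, more in null (3.92 ± 0.21) than in wild-type islets (1.62 ± 0.21). The L-type calcium channel genes *Cacna1c* and *Cacna1d* had interactions of 0.58 ± 0.45 (adjusted p = 0.40) and 0.88 ± 0.39 (adjusted p = 0.13). Both were called without P1 wild-type replicate 1, at 1.12 (adjusted p = 8.5e-04) and 1.25 (adjusted p = 0.0070), and *Cacna1d* also without P1 null replicate 3 (adjusted p = 0.032), with the replicate block at P1 (adjusted p = 0.021) and with the gene length offset (adjusted p = 0.020). *Glp1r*, the incretin receptor, had 0.85 ± 0.77 (adjusted p = 0.47) and was likewise called without that wild-type library, at 1.77 (adjusted p = 0.0026). In it *Glp1r* had 46.0 normalized counts, against 402 and 253 in the other P1 wild-types. Array weights called all of *Cacna1c* (adjusted p = 4.9e-04), *Cacna1d* (adjusted p = 1.1e-04) and *Glp1r* (adjusted p = 0.0015).

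Of 40 exocytosis and granule genes, 24 were called higher and 6 lower. *Pcsk1*, the convertase that cuts proinsulin, had 5462, 5714 and 5759 normalized counts in week 8 nulls, against 2305, 3481 and 2272 in week 8 wild-type. Its P1 counts were 1494, 1214 and 2161 in nulls, against 2245, 3438 and 4437 in wild-type, and its interaction was 2.14 ± 0.35 (SE, limma adjusted p = 0.0010). *Sytl4*, which encodes granuphilin, a granule docking protein, had 5889, 5741 and 6073 in week 8 nulls, against 2601, 3419.8 and 2087 in week 8 wild-type, and an interaction of 2.50 ± 0.44 (adjusted p = 0.0015). *Syp*, the vesicle protein synaptophysin, had 1.498 ± 0.24 (adjusted p = 8.0e-04) and *Ptprn*, a granule membrane phosphatase-like protein, 1.58 ± 0.23 (adjusted p = 4.2e-04). Members called lower included *Selp*, *Cuzd1*, a zymogen granule protein (-5.06 ± 0.63, adjusted p = 2.0e-04), and *Rab26*, a small GTPase of secretory granules (-3.62 ± 0.52, adjusted p = 3.9e-04).

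The cyclic AMP genes of the study's figures split, with 6 of 10 called higher and 3 lower. The adenylate cyclases *Adcy4* and *Adcy5* had interactions of -1.75 ± 0.44 (SE, limma adjusted p = 0.012) and -1.23 ± 0.33 (adjusted p = 0.016). *Adcy4* had 133, 136 and 198 normalized counts in week 8 nulls, against 685, 205 and 405 in week 8 wild-type, and 542, 572 and 594 in P1 nulls, against 432, 447 and 392 in P1 wild-type. *Prkar1b*, a regulatory subunit of protein kinase A, was called higher at 1.11 ± 0.21 (adjusted p = 0.0021). The 6 higher calls came to 2 without week 8 wild-type replicate 1 or replicate 3 and to 3 without week 8 null animal MUT218, P1 null replicate 1 or P1 null replicate 2.

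Most of the abundant genes with the largest interactions on the higher side were on none of the lists. *Adora2b*, an adenosine receptor of the exocytosis list, had 696, 257 and 412 normalized counts in week 8 nulls, against 119, 96.8 and 105 in week 8 wild-type. At P1 it had 41.6, 46.3 and 54.0 in nulls, against 155, 95.2 and 91.2 in wild-type. Every null lay above every wild-type at week 8 and below it at P1, and the interaction was 3.18 ± 0.45 (SE, limma adjusted p = 3.5e-04). *Otoa*, known for a protein of the inner ear matrix, had 257, 283 and 429 in week 8 nulls, against 134, 193 and 135 in week 8 wild-type, and 25.8, 16.5 and 45.6 in P1 nulls, against 126, 100.1 and 140.4 in P1 wild-type. It was called at both ages and its interaction was 3.17 ± 0.46 (adjusted p = 4.4e-04). *Scnn1g*, a subunit of the epithelial sodium channel, had 245, 261 and 286 in week 8 nulls, against 115, 90.2 and 60.8 in week 8 wild-type. For P1, counts of this gene were 47.5, 43.0 and 76.4 in nulls, against 140.1, 130.1 and 133 in wild-type, and it too was called at both ages, with an interaction of 2.91 ± 0.37 (adjusted p = 2.2e-04). *Prss53*, a serine protease, rose with age in both genotypes, by 4.37 log2 units in null and by 1.497 log2 units in wild-type islets, with an interaction of 2.87 ± 0.37 (adjusted p = 2.3e-04).

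*Igsf1*, an immunoglobulin superfamily membrane protein, had 375, 389 and 409 normalized counts in week 8 nulls, against 163, 238 and 174 in week 8 wild-type. In P1 libraries the counts were 237, 189 and 509 in nulls, against 714, 835 and 1009 in wild-type. It fell with age in wild-type islets (-2.15 ± 0.29), while its age change in null islets was 0.46 ± 0.29, and the interaction was 2.61 ± 0.41 (SE, limma adjusted p = 6.9e-04). *Ppp1r1a*, an inhibitor of protein phosphatase 1, had 2.50 ± 0.35 (adjusted p = 3.6e-04) and *St8sia5*, a sialyltransferase, 3.14 ± 0.55 (adjusted p = 0.0015). *Fer1l6*, a ferlin family member, had 3.05 ± 0.63 (adjusted p = 0.0039) and *Hpse*, which encodes heparanase, 2.59 ± 0.61 (adjusted p = 0.0084).

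Genes called at both ages in opposite directions also included genes on no list. *Slc2a5*, a fructose transporter, had 4071, 3202 and 3823 normalized counts in week 8 nulls, against 1571, 2049 and 1511 in week 8 wild-type. The P1 counts were 556, 483 and 844 in nulls, against 1408, 1379 and 1362 in wild-type, and its interaction was 2.30 ± 0.27 (SE, limma adjusted p = 1.5e-04). *Entpd3*, an ectonucleotidase of the islet cell surface, had 4191, 3042 and 3986 in week 8 nulls, against 1583, 1894 and 1438 in week 8 wild-type, and 1162, 1327 and 1985 in P1 nulls, against 2593, 3209.6 and 3193 in P1 wild-type. Both were above wild-type in all week 8 nulls and below it in all P1 nulls. On the lower side, *Slc16a5*, a monocarboxylate transporter family member, had 102, 234 and 116 in week 8 nulls, against 960.2, 1327 and 1228 in week 8 wild-type, and 302, 265 and 166 in P1 nulls, against 40.1, 49.0 and 80.9 in P1 wild-type. Its interaction was -5.14 ± 0.47 (adjusted p = 4.7e-05). *Nphs1*, which encodes nephrin, had -5.14 ± 0.46, *Rasef*, a Rab-like GTPase, -4.24 ± 0.37, and *Itgb4*, an epithelial integrin, -4.14 ± 0.37 (adjusted p = 4.7e-05 for each).

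Cell cycle genes fell with age in both genotypes. Of 46 S, G2 and M phase genes, 44 fell with age in null islets (median -1.85) and 40 in wild-type islets (median -2.37). In the interaction 12 were called higher and 2 lower, against 8.2% and 13.6% of all genes tested. *Ect2*, which drives cytokinesis, had 147, 134 and 169 normalized counts in week 8 nulls, against 69.2, 43.4 and 63.5 in week 8 wild-type. At P1 the genotypes overlapped, with 306, 281 and 242 in nulls, against 233, 303 and 319.8 in wild-type, and the interaction was 1.40 ± 0.31 (SE, limma adjusted p = 0.0056). *Top2a*, the topoisomerase of dividing cells, had 346, 352 and 384 in week 8 nulls, against 141, 118 and 146 in week 8 wild-type, and an interaction of 1.15 ± 0.32 (adjusted p = 0.021). That call was lost without week 8 null animal MUT229 (adjusted p = 0.052) or P1 null replicate 2 (adjusted p = 0.054). The 12 higher calls of the list came to 2 with animal MUT229 left out, 6, 4 or 4 with P1 null replicate 1, 2 or 3 left out, and 5 with replicate 3 of either wild-type group left out. The 2 lower calls ranged from 0 to 4 when a library was left out, and were 4 with week 8 wild-type replicate 2 or P1 null replicate 3 left out. The list took 0.0281% to 0.0376% of reads in week 8 nulls, against 0.0133% to 0.0168% in week 8 wild-type. In normalized counts, 40 of the 46 week 8 null minus wild-type estimates were above 0 and 6 below, with a median of 0.745.

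Cholesterol synthesis genes were all positive in the interaction, and 11 of 20 were called higher, with a median of 0.79. With age 11 rose and 2 fell in null islets, against 0 that rose and 9 that fell in wild-type islets. *Sqle*, squalene epoxidase, had 3821, 3524.4 and 3929 normalized counts in week 8 nulls, against 2362, 2352 and 2197 in week 8 wild-type. Its P1 counts were 1711, 2355 and 2433 in nulls, against 3275, 3256 and 2829 in wild-type, and its interaction was 1.25 ± 0.21 (SE, limma adjusted p = 0.0010). *Pmvk*, phosphomevalonate kinase, had 1.85 ± 0.32 (adjusted p = 0.0013) and *Sc4mol*, a sterol oxidase, 1.496 ± 0.29 (adjusted p = 0.0029).

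Some genes were called at P1 and not at week 8. Of the 21 genes called in the interaction and at P1 but not at week 8, *Cryba2*, a crystallin gene expressed in islets, had 309.5, 401 and 250.3 normalized counts in week 8 nulls, against 163, 232 and 226 in week 8 wild-type. At P1 it had 199, 201 and 248 in nulls, against 916, 574 and 615 in wild-type, and its interaction was 2.29 ± 0.32 (SE, limma adjusted p = 3.4e-04). P1 wild-type libraries thus stood above all others. *C2cd4a*, a C2 domain gene, had 242, 178 and 181 in week 8 nulls, against 139.9, 157 and 138 in week 8 wild-type, and 42.6, 57.1 and 90.3 in P1 nulls, against 188, 154 and 232 in P1 wild-type. Its interaction was 2.08 ± 0.37 (adjusted p = 0.0016). *Aldh1l2*, the mitochondrial formyltetrahydrofolate dehydrogenase, had 958, 754 and 713 in week 8 nulls, against 1521, 1583 and 2177 in week 8 wild-type, and 538, 397 and 130.4 in P1 nulls, against 46.0, 81.2 and 95.6 in P1 wild-type. It was called lower at -3.19 ± 0.57 (adjusted p = 0.0016), as were *Anpep*, an aminopeptidase (-1.97 ± 0.37, adjusted p = 0.0022), and *Galnt7*, a glycosyltransferase (-1.63 ± 0.31, adjusted p = 0.0022).

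Endoplasmic reticulum genes were called lower for 10 of 36 and higher for 1, with a median of -0.21. The largest belonged to *Erp27*, a disulfide isomerase family member (-4.81 ± 0.65, SE, limma adjusted p = 2.9e-04), and *Pdia2*, the pancreatic disulfide isomerase (-4.67 ± 0.58, adjusted p = 1.9e-04). *Erp27* had 1079, 2541 and 1135 normalized counts in week 8 nulls, against 7171, 7383 and 9525 in week 8 wild-type, and 2978, 2475 and 1019.9 in P1 nulls, against 369.9, 199 and 737 in P1 wild-type. Its P1 null replicate 3 was again the lowest of its group, as with the acinar enzymes. *Derl2*, a component of the degradation machinery, was called higher, at 1.03 ± 0.20 (adjusted p = 0.0031).

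Lower calls on the immune and nerve lists are read against the 13.6% of all genes called lower. Macrophage and myeloid markers were called lower for 4 of 21, MHC class II genes for 1 of 10, interferon response genes for 4 of 18 and Schwann cell markers for 3 of 9. None of these 4 lists had a higher call. *Cd14*, a lipopolysaccharide co-receptor, had 84.6, 50.4 and 64.4 normalized counts in week 8 nulls, against 580.3, 185 and 518 in week 8 wild-type. At P1 the genotypes overlapped, with 299, 389 and 325 in nulls, against 374, 218.3 and 209 in wild-type, and the interaction was -2.92 ± 0.52 (SE, limma adjusted p = 0.0015). *Csf1r*, the macrophage growth factor receptor, had -1.55 ± 0.33 (adjusted p = 0.0048). Myeloid markers took 0.0174% to 0.0206% of reads in week 8 nulls, against 0.0154% to 0.0188% in week 8 wild-type. In normalized counts, however, the week 8 null minus wild-type estimates of all 21 were below 0, with a median of -0.62. MHC class II genes rose with age in both genotypes, 7 of 10 in null and 9 of 10 in wild-type islets. The interferon count was 7 or 8 when week 8 wild-type replicate 2 or P1 null replicate 3 was left out, and the Schwann count was 1 without week 8 wild-type replicate 3, P1 null replicate 1, P1 null replicate 2 or P1 wild-type replicate 3. Of 8 erythroid genes limma called 0, as did edgeR and DESeq2, while 1 had an unadjusted p under 0.05 and all 8 were positive (median 0.82). Lymphocyte markers had 1 higher and 1 lower call of 8, and edgeR called neither. *Cd3e* and *Cd3g*, of the T cell receptor complex, were at 0 in all week 8 null libraries, and these genes were chosen for that after their values were seen.

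Most imprinted growth genes fell with age in both genotypes, 10 of 16 in null and 11 in wild-type islets. In the interaction 3 of 16 were called higher and 2 lower, against 8.2% and 13.6% of all genes tested. The higher count was 5 without week 8 wild-type replicate 2 or P1 wild-type replicate 1. The lower count was 0 without week 8 null animal MUT218 or week 8 wild-type replicate 1. It was also 0 without P1 null replicate 1, P1 null replicate 2 or P1 wild-type replicate 2. *Nnat*, which encodes neuronatin, had 242, 376 and 558 normalized counts in week 8 nulls, against 243, 461 and 209 in week 8 wild-type. In P1 libraries the counts were 3082, 3919.7 and 6319.8 in nulls, against 11704, 11526 and 12339.6 in wild-type. The week 8 genotypes overlapped and the P1 genotypes did not, and the interaction was 1.86 ± 0.46 (SE, limma adjusted p = 0.011). *Rian*, a noncoding RNA, had 0.88 ± 0.20 (adjusted p = 0.0074) and *Slc38a4*, an amino acid transporter, 1.79 ± 0.44 (adjusted p = 0.010).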

How the data were processed

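Islet RNA was sequenced from 12 libraries, and the groups were taken from the sample labels. The deposited values are a signal: the authors divided the reads of a gene by the size factor of the library and called the result a normalized count. The submitters' processing notes and the table header name build mm9, Ensembl annotation 67, bedtools 2.11 and DESeq 1.10.1. No source used here gives the aligner, the counting options or the use of strand. Columns of the authors' own comparisons (fold changes and p-values) were not used, and 0 columns of per-sample values could not be matched to a sample.

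Within each library 100% of values were whole multiples of 1 step (tolerance 0.001), which gave whole reads. Genes with a mean of at least 1 normalized count were tested with limma 3.58.1 (trend, R 4.3.3) on log2(normalized count + 1) in 1 fit of 4 group means, with Benjamini-Hochberg adjustment over all genes and a threshold of 0.05. edgeR 4.0.16 (quasi-likelihood), DESeq2 1.42.0 and limma-voom were run on the recovered reads, together with other normalizations, pseudocounts, filters, weights, offsets, covariates and fits without each library. The fits were tested on simulated data with known changes. A P1 library pooled 3 mice, and nothing shows that P1 replicates came from separate litters, so p-values measure the spread between these libraries.

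Genes were named by rule: the largest interactions among genes averaging 100 or more normalized counts, the called members of 31 lists with the smallest adjusted p, genes called at both ages with opposite signs, genes called at P1 and not at week 8, and a set of islet genes whether called or not. The members and lists were chosen with earlier results of these data known. RefSeq promoters came from build GRCm38.p6, and coordinates were not converted.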

Additional observations from a re-analysis of the deposited data

Results flagged for a closer look

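The null minus wild-type difference differed between week 8 and P1, by the interaction test (limma, adjusted p under 0.05), for 1504 genes called higher and 2486 called lower. In 108 of them the difference was also called at each age, with opposite signs. For the 6 genes that the naming rule took in each direction, by smallest adjusted p, the interaction was -6.01 for *Try4*, -5.995 for *Rbpjl*, -5.14 for *Slc16a5*, -5.14 for *Nphs1*, -4.24 for *Rasef* and -4.14 for *Itgb4*. It was 2.91 for *Scnn1g*, 2.87 for *Prss53*, 2.30 for *Slc2a5*, 2.22 for *Entpd3*, 1.94 for *Neurod1* and 1.80 for *Fbxl16*. With 3 libraries in each group, no test of a single library against its group was run on these values.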

How the results depend on the processing

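Of the 132 named genes called, 117 kept the call under every alternative but the acinar covariate, which ended all 132 and turned the sign of *Rrm2* (0.90), *Gcg* (0.77), *Anpep* (0.25), *Erp27* (0.099), *Itgax* (0.046), *Mcm7* (0.042) and *Igf2* (0.031). With that covariate the interaction had 0 calls, week 8 had 260, P1 had 0, age in wild-type islets had 33 and opposite calls at both ages 0. Array weights gave 8245 interaction calls, 8273 at week 8, 3115 at P1 and 1873 opposite calls. DESeq2 gave 832 calls at P1 and 497 opposite calls, an adjusted p of at most 0.1 gave 473 and 338, and a gene length offset 241 and 184. The 1504 genes called higher in the interaction were 2268 with the length offset, 46.0% of its calls against 37.7%, and 3849 with array weights, 46.7% of its calls. Without single libraries the interaction had 2728 to 5227 calls, week 8 2537 to 6186, P1 9 to 546 and opposite calls 8 to 372. In each of those 12 fits 796 of the 1504 higher genes and 1647 of the 2486 lower genes were called. The interaction of *Gcg* ran from -0.36 to 0.26 over these fits, turning sign without week 8 null animal MUT229 (0.26), week 8 wild-type replicate 2 (0.19) and P1 null replicate 1 (0.0083). *Ppy* ran from -0.35 to 0.70, turning without animal MUT229 (-0.35), P1 null replicate 1 (-0.066) and P1 wild-type replicate 1 (-0.22), and *Aldh1b1* from -0.91 to 0.056, turning without P1 null replicate 3 (0.056). None of these 3 genes was called. The cause of these changes was not tested. List counts of 5 or fewer moved by over 1.5 times in several of these fits. A replicate block at P1 gave 1526 higher and 2454 lower calls. Same-numbered P1 libraries did not deviate together (r of 0.063, -0.041 and -0.012 across genes), and other-numbered ones ran from -0.21 to 0.19. These values show no pairing by number. They cannot exclude one, as the acinar share also differed between these libraries.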
